A study of Homo sapiens with 4 samples.

Results

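The genes described here are the 3 trefoil factor genes TFF1, TFF2 and TFF3, which lie side by side on human chromosome 21, and the peaks of H3K27ac in and around them. The genes were found by symbol in the GENCODE annotation on hg19 and are 3 of 20163 protein-coding genes. A peak was taken as a promoter peak of a gene where it overlapped the 1 kb on either side of any of its transcript starts by at least 1 bp, and all peaks in the cluster and the 50 kb on either side of it were taken as cluster window peaks. By this rule, 67 of 251138 deposited peaks were cluster window peaks, of which 37 were found in COLO-205, 11 for DU-145, 19 for OVCAR-3 and 0 for SKOV-3.

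Acetylation of lysine 27 of histone H3 was measured by ChIP-seq, with the antibody ab4729, in 4 human cancer cell lines, as matched regulatory data for predicted gain-of-function mutations in non-coding DNA. COLO-205 is a colon cancer line grown in RPMI, DU-145 a prostate cancer line grown in Eagle minimal essential medium, and OVCAR-3 and SKOV-3 are ovarian cancer lines grown in RPMI 1640 medium and in McCoy's 5a minimal essential medium. All media were supplemented with FBS, no line was labelled as treated, and each line was 1 library with no replicate. Differences between lines are therefore differences between 4 libraries, line and medium cannot be told apart, and no test between lines was possible.

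H3K27ac marks the nucleosomes next to active promoters and enhancers, so a peak at a gene's start or upstream of it is commonly read as a sign of an active regulatory region, without itself measuring the gene's RNA. Trefoil factors are small secreted peptides, held in a looped fold by disulphide bonds, that are released together with mucins and protect and repair the lining of the gut. TFF1 is made by the surface mucous cells of the stomach and is a well-known oestrogen-induced gene of breast cancer, TFF2 is made by mucous cells of the gastric glands, and TFF3 is the trefoil factor of intestinal goblet cells.

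All 3 genes are read from the minus strand. TFF3 (ENSG00000160180.17_11) spans chr21:43731777-43735519, TFF2 (ENSG00000160181.9_8) chr21:43766466-43771106 and TFF1 (ENSG00000160182.3_8) chr21:43782391-43786644. The cluster covers 54868 bp, and with its flanks the window covers 154868 bp (chr21:43681777-43836644). Its low end holds the last part of ABCG1, which encodes a sterol transporter, and its high end holds TMPRSS3, which encodes a transmembrane serine protease, and the first part of UBASH3A, which encodes a regulator of T cell receptor signalling.

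Sequence is shown for 5 peaks on which the description below turns: the COLO-205 peaks with the highest and next highest significance in the window, the strongest window peak of DU-145 and of OVCAR-3, and the COLO-205 peak in the first intron of TFF1. That last peak overlapped a DU-145 peak and an OVCAR-3 peak, which did not overlap each other. Each is the 201 bases centred on the peak's summit, from the GRCh37 reference, on the minus strand of chromosome 21 and therefore in the reading direction of the trefoil genes. Capitals mark matches, on either strand, to the short motifs listed further on. The first sequence (chr21:43737500-43737700) has a FOXA match that runs into a KLF match on either side. The third (chr21:43730088-43730288) has a CDX and a KLF match, the fifth (chr21:43785353-43785553) has 3 KLF matches and 1 ETS match, the second (chr21:43738002-43738202) has 1 KLF match, and the fourth (chr21:43758564-43758764) has none.
COLO-205, strongest peak upstream of TFF3: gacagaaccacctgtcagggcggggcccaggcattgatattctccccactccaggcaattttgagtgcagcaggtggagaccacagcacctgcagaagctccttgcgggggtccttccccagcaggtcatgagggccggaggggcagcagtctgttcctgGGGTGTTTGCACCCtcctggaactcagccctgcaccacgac
COLO-205, next peak upstream of TFF3: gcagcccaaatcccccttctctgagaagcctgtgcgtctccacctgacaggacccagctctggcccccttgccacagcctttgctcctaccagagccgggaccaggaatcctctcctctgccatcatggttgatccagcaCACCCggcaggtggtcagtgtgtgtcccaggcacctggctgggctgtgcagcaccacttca
DU-145, strongest peak, downstream of TFF3: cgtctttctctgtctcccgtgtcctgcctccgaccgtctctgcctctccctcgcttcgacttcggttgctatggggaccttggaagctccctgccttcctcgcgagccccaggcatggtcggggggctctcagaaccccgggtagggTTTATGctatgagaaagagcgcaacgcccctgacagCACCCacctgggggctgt
OVCAR-3, strongest peak, between TFF3 and TFF2: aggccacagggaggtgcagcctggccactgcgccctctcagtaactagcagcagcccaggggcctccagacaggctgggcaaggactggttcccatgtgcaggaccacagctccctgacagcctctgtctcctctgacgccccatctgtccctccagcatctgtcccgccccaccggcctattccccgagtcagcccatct
COLO-205, peak in the first intron of TFF1: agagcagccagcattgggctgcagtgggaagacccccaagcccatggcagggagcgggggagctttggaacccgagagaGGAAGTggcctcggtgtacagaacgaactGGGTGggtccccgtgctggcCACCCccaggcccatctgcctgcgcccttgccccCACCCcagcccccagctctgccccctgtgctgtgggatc

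The peak lists differed in length, from 85576 peaks for COLO-205, 76093 for OVCAR-3 and 75468 for DU-145 down to 14001 for SKOV-3. The ChIP tags, worked out from the lowest background values, numbered 29800000, 34200000, 36000000 and 22400000 in that order. Of the markers fixed to check the labels, OVCAR-3 had promoter peaks at 8 of 8 ovarian genes, 4 of 8 prostate genes and 1 of 8 colon genes, and SKOV-3 at 3, 1 and 0. COLO-205 had 4 of 8 on each of the 3 lists, among them the colon genes CDX2, VIL1, LGALS4 and GPA33 and also KLK2 and KLK3, so its count did not single out colon and was near the 51.1% of all protein-coding genes with a promoter peak in that library. DU-145 had 4 of 8 prostate genes, 5 of 8 ovarian genes and 1 of 8 colon genes, with none at KLK2, KLK3 or HOXB13, so its count did not single out prostate. The shares over all genes were 31.6% for SKOV-3, 59.8% for DU-145 and 60.5% for OVCAR-3, so 4 of 8 prostate genes was below the share in both DU-145 and OVCAR-3. Chromosome 21 as a whole had 1.63 times the peak density of the median chromosome for OVCAR-3, 1.54 times for DU-145, 1.04 times for SKOV-3 and 0.875 times for COLO-205; the part of this density in the number of window peaks was not tested.

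COLO-205 had a promoter peak at all 3 trefoil genes, DU-145 at TFF1, OVCAR-3 at TFF2 and SKOV-3 at none. Across all protein-coding genes, the share with a promoter peak was 31.6% for SKOV-3, 51.1% for COLO-205, 59.8% for DU-145 and 60.5% for OVCAR-3. The 3 genes of COLO-205 were thus above the share of the library and the single genes of DU-145 and OVCAR-3 below it, in a set of only 3 neighbours. This contrast turned with the width of the promoter window. With 2.5 kb on either side, DU-145 marked 3 of 3 genes, beside 61.7% of all genes, and OVCAR-3 2 of 3, beside 62.3%, while with 500 bp DU-145 marked 0. Where the peak had to contain a transcript start, COLO-205 kept TFF2 and TFF3 and no other line had any, beside 28.7% of all protein-coding genes in COLO-205, 47.5% for DU-145, 46.8% for OVCAR-3 and 17.4% for SKOV-3.

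**Figure D1:**
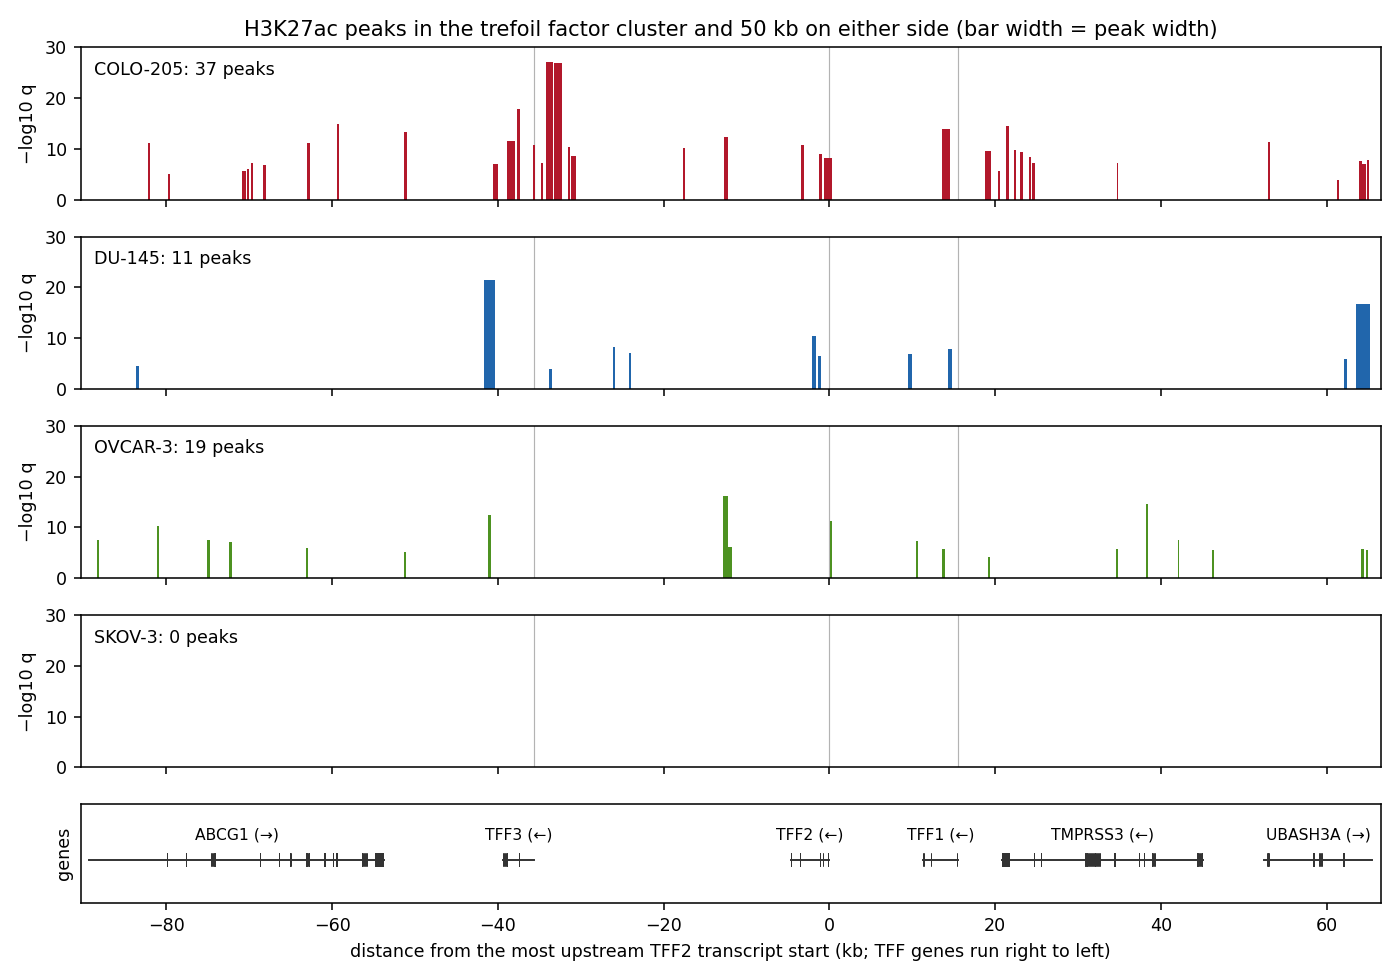
H3K27ac peaks of each line in the trefoil cluster and 50 kb on either side, with the −log10 q of each peak on the vertical axis and the distance from the most upstream TFF2 start in kb on the horizontal axis; grey lines mark the most upstream start of each trefoil gene and the lowest panel shows exons as boxes. COLO-205 has 37 peaks with the highest ones just upstream of TFF3, DU-145 has 11, OVCAR-3 has 19 and SKOV-3 has none.

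TFF3, the goblet cell factor, had the most promoter peaks of the 3 genes in COLO-205 when every transcript start was counted. Its promoter windows held 4 peaks, and 853 of the 10308 genes with a promoter peak in COLO-205 (8.28%) had as many. The number of starts per gene was not allowed for. The peaks with the higher folds counted only through the start of a shorter transcript. At the coding starts the highest fold was 4.98, below the 6.35 of the TFF1 promoter peak and the 5.59 of that of TFF2. The peak over the start of the coding transcripts (chr21:43735302-43735545) had a fold enrichment of 4.98 over the local background, a −log10 q of 10.7 and a pileup of 29 tags at its summit, with a 95% Poisson interval of 19.4 to 41.6.

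A second peak (chr21:43736315-43736539) lay upstream of it, with its summit 861 bp before the nearest start and a fold of 4.34. The remaining peaks lay in the gene body, beside the start of a shorter TFF3 transcript without a defined coding sequence. Of these, chr21:43733361-43733780 had a fold of 7.20, a −log10 q of 17.9 and a pileup of 34 tags, and its summit was in the second intron of TFF3. The other (chr21:43732194-43733207), also with its summit in the second intron, had a fold of 5.47 and a pileup of 28 tags. The strongest promoter peak of TFF3 in COLO-205 was thus the one in the gene body, with a −log10 q above that of 69.9% and a fold above that of 92.8% of promoter peaks of that library, when each gene is given by its strongest peak.

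Immediately upstream of TFF3, COLO-205 had the strongest peaks of the whole window. The first (chr21:43736887-43737743) was 857 bp wide, had a fold of 8.58, a −log10 q of 27.1 and a pileup of 46 tags (interval 33.7 to 61.4), and its summit lay 2081 bp before the TFF3 start. The second (chr21:43737906-43738864) was 959 bp wide, had a fold of 8.69, a −log10 q of 26.8 and a pileup of 45 tags (interval 32.8 to 60.2), and its summit lay 2583 bp before the start. The −log10 q of these peaks was above that of 95.9% of all COLO-205 peaks for either. They were followed by 2 weaker peaks with folds of 4.87 and 4.34, so that 9 COLO-205 peaks had their summit within 10 kb of the TFF3 start, a distance chosen after the values were seen, and covered 5090 bp. DU-145 had 3 such peaks, OVCAR-3 had 1 and SKOV-3 had 0. Within the same distance of their own starts, TFF1 had 8 COLO-205 peaks, which covered 3366 bp, and TFF2 had 3, which covered 1601 bp.

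In DU-145, no peak reached the 1 kb around a TFF3 start. The nearest one (chr21:43737313-43737608) began 1794 bp away, inside the first of the strong COLO-205 peaks, and was the weakest cluster window peak of DU-145, with a fold of 2.96, a −log10 q of 3.85 and a pileup of 20 tags. Dividing the pileup by the library's tags gives a scaled pileup, in tags per 1000000, which at this site was 0.556 (interval 0.339 to 0.858) in DU-145 and 1.54 (interval 1.13 to 2.06) in COLO-205. These intervals, which cover counting error only, did not overlap. In OVCAR-3 the nearest peak began 3503 bp from a TFF3 start, and in SKOV-3 198124 bp away.

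Downstream of TFF3, DU-145 had the highest peak values. The strongest cluster window peak of DU-145 (chr21:43729468-43730701) lay past the end of the gene, was 1234 bp wide and had a fold of 6.30, a −log10 q of 21.5 and a pileup of 47 tags, or a scaled pileup of 1.31 (interval 0.959 to 1.74). OVCAR-3 had a peak inside it (chr21:43729938-43730293) with a fold of 5.36, a −log10 q of 12.5 and a scaled pileup of 0.877 (interval 0.592 to 1.25). The peak of COLO-205 (chr21:43730549-43731077) overlapped the end nearer to the gene, with a fold of 4.02, a −log10 q of 6.98 and a scaled pileup of 0.805 (interval 0.516 to 1.20). Taken at each line's own summit, the scaled pileup was highest in DU-145 and lowest in COLO-205, and the intervals of the 3 lines overlapped. The COLO-205 and OVCAR-3 peaks did not overlap, so these values do not rank the lines at a common position.

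TFF2, the gastric gland factor, was the gene with a peak at or next to its start in 2 lines. In COLO-205 a peak of 879 bp (chr21:43770486-43771364) contained the start, with a fold of 4.87, a −log10 q of 8.23 and a pileup of 22 tags (interval 13.8 to 33.3), and its summit lay 155 bp upstream. In OVCAR-3 a peak of 238 bp (chr21:43771178-43771415) lay 72 bp upstream of the start, with a fold of 5.46, a −log10 q of 11.2 and a pileup of 26 tags (interval 17.0 to 38.1). The scaled pileups were 0.738 (interval 0.463 to 1.12) and 0.760 (interval 0.497 to 1.11), so the difference between both lines was well inside the counting error. In OVCAR-3, 11.1% of promoter peaks had a lower −log10 q than this one and 28.7% a lower fold.

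Inside TFF2, COLO-205 and DU-145 shared a site at the second exon. The COLO-205 peak (chr21:43769836-43770185) had a fold of 5.59 and a −log10 q of 8.93 and counted as a promoter peak, because its upper end was 918 bp from a start. It was the most significant promoter peak of TFF2 in COLO-205, where 30.9% of promoter peaks had a lower −log10 q and 76.8% a lower fold. The DU-145 peak (chr21:43769716-43770050) had a fold of 4.34 and a −log10 q of 6.52 and fell just outside the rule, 1053 bp from a start. DU-145 had a further peak in the second intron (chr21:43769013-43769454; fold 5.45, −log10 q 10.3), where COLO-205 had one closer to the third exon (chr21:43767651-43768022; fold 5.28, −log10 q 10.7). OVCAR-3 had no peak in the body of TFF2, and the nearest SKOV-3 peak was 162537 bp from its start.

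TFF1, the surface mucous cell and oestrogen-induced factor, had no peak over its start in any line, and the peaks nearest to the start lay in the first intron. COLO-205 had a peak of 948 bp there (chr21:43784706-43785653) with a fold of 6.35, a −log10 q of 13.8 and a pileup of 29 tags (interval 19.4 to 41.6), and its summit was 1191 bp inside the gene. It overlapped the 1 kb around the start by 10 bp, coming to within 991 bp of it. In DU-145 the peak (chr21:43785459-43785930) came to within 714 bp of the start and had a fold of 4.27, a −log10 q of 7.76 and a pileup of 24 tags.

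OVCAR-3 also had a peak in this intron (chr21:43784713-43785063; fold 4.29, −log10 q 5.67, 16 tags), but it ended 1581 bp from the start and was not a promoter peak. Whether TFF1 counted as marked was thus decided by the reach of the promoter window in each of these lines. At each line's own summit the scaled pileup was 0.973 (interval 0.652 to 1.40) in COLO-205, 0.667 (interval 0.427 to 0.992) in DU-145 and 0.468 (interval 0.267 to 0.760) in OVCAR-3. The intervals of all pairs overlapped. The DU-145 and OVCAR-3 peaks did not overlap, so these values do not rank the lines at a common position. Among the promoter peaks of DU-145, 7.23% had a lower −log10 q than the one at TFF1 and 39.6% a lower fold, and among those of COLO-205 57.3% and 86.6%. The nearest SKOV-3 peak was 146999 bp from the TFF1 start.

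Upstream of TFF1, toward and into TMPRSS3, COLO-205 had a further row of peaks. The first (chr21:43789926-43790612) had a fold of 5.41, a −log10 q of 9.62 and a pileup of 23 tags, and its summit lay 3867 bp before the TFF1 start. OVCAR-3 had a peak inside it (chr21:43790259-43790457; fold 3.61, −log10 q 4.20, 15 tags), with its summit 3643 bp before the start. The scaled pileups were 0.772 (interval 0.489 to 1.16) and 0.439 (interval 0.245 to 0.723), with overlapping intervals. The strongest of the row, chr21:43792483-43792786, lay 5969 bp before the start in an exon of TMPRSS3, with a fold of 6.65 and a −log10 q of 14.5 in COLO-205. DU-145 had no peak between TFF1 and UBASH3A.

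Between the genes, the strongest cluster window peak of OVCAR-3 (chr21:43758325-43758829) lay between TFF3 and TFF2, with a fold of 6.07, a −log10 q of 16.2 and a pileup of 35 tags. COLO-205 had a peak of nearly the same extent (chr21:43758356-43758827; fold 5.55, −log10 q 12.4, 30 tags), and the summits of both were 8 bp apart. The scaled pileup was 1.02 (interval 0.713 to 1.42) in OVCAR-3 and 1.01 (interval 0.679 to 1.44) in COLO-205. DU-145 had no peak there and had 2 peaks of its own nearer to TFF3, the stronger of which (chr21:43744984-43745231) had a fold of 4.78, a −log10 q of 8.28 and a pileup of 22 tags.

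Outside the cluster, COLO-205 had 8 peaks in the part of ABCG1 inside the window, with folds of 3.79 to 6.07 and the strongest (chr21:43711653-43711980) at a −log10 q of 14.8 and a pileup of 33 tags, and 6 in TMPRSS3, with folds of 4.60 to 6.65. OVCAR-3 had 5 in ABCG1, of which the strongest (chr21:43689998-43690235) had a fold of 5.86, a −log10 q of 10.2 and a pileup of 21 tags. It had 3 in TMPRSS3, of which the strongest (chr21:43809269-43809572) had a fold of 5.91, a −log10 q of 14.6 and a pileup of 32 tags. DU-145 had 1 in ABCG1, 0 in TMPRSS3 and, in UBASH3A, a peak of 1791 bp (chr21:43834612-43836402) with a fold of 5.66, a −log10 q of 16.8 and a pileup of 40 tags. This last site was also marked in COLO-205 by 3 peaks and in OVCAR-3 by 2.

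Joined over the lines, the 67 peaks made 50 sites, of which 24 were marked in COLO-205 alone, 9 in OVCAR-3 alone and 6 in DU-145 alone. COLO-205 and OVCAR-3 shared 6 sites, COLO-205 and DU-145 shared 2, and 3 were marked in all of COLO-205, DU-145 and OVCAR-3. Those 3 were the site downstream of TFF3, the first intron of TFF1 and the site in UBASH3A. No joined site held DU-145 and OVCAR-3 without COLO-205, but joining also links peaks through a wider one. Downstream of TFF3 the OVCAR-3 peak overlapped the DU-145 peak and not that of COLO-205. In the TFF1 intron the DU-145 and OVCAR-3 peaks each overlapped the COLO-205 peak and not each other. Counted as peaks, 13 of 37 in COLO-205 (35.1%) overlapped a peak of another line, beside 25.2% of all its peaks. In DU-145 it was 5 of 11 (45.5%), beside 37.7%, and in OVCAR-3 10 of 19 (52.6%), beside 40.7%, so the window's shares were above those of the whole lists by similar margins.

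**Figure D2:**
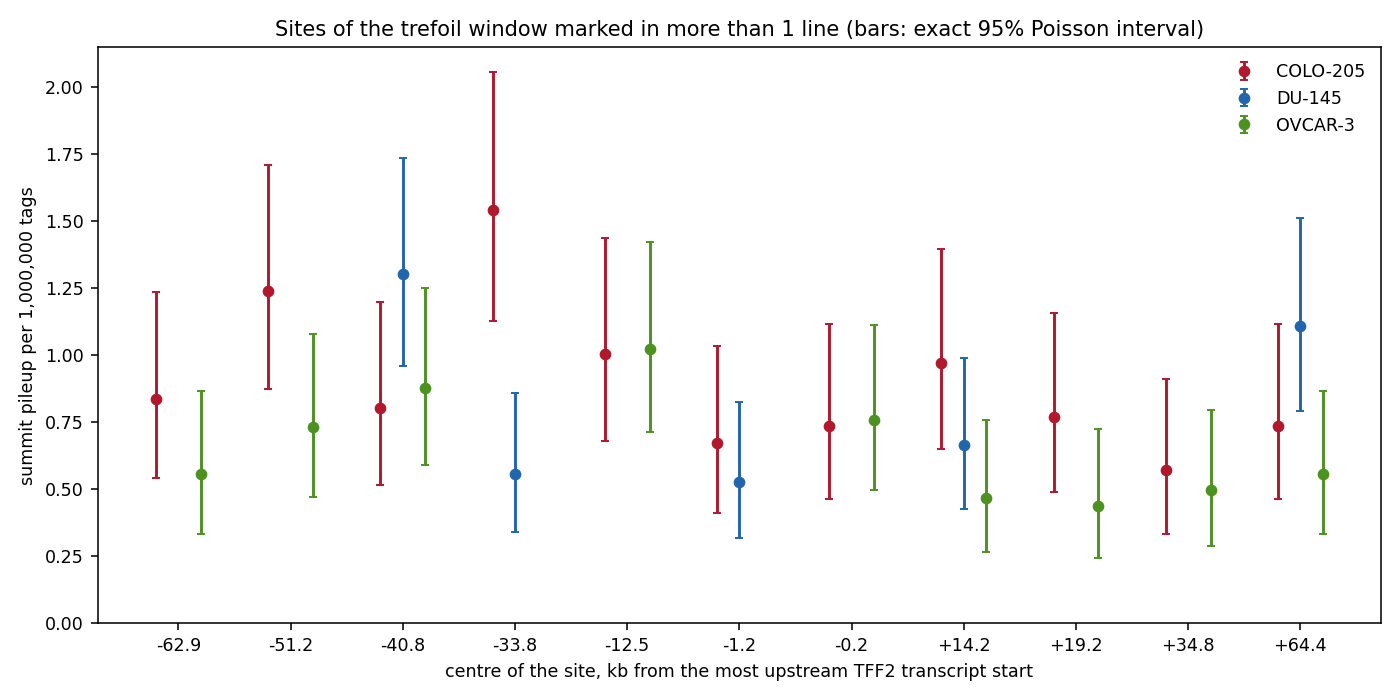
Summit pileup per 1000000 ChIP tags at the 11 joined sites marked in more than 1 line, placed by their distance in kb from the most upstream TFF2 start. Points are the strongest peak of a line at the site, each at its own summit. Bars are the exact 95% Poisson interval, which covers counting error only. Intervals overlap at every site except the one upstream of TFF3, where COLO-205 has 1.54 and DU-145 0.556.

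The window was rich in peaks in COLO-205 by the measure of the genome. Among 11451 genomic windows of the same length that hold a protein-coding start, the median was 2 peaks in COLO-205, and 2.83% had as many as the 37 of the trefoil window. For DU-145 17.2% of windows had as many as 11, and for OVCAR-3 7.43% had as many as 19. The trefoil window holds starts of several coding genes, and the part of gene density in its peak number was not tested. The peaks covered 10.1% of the window in COLO-205, 4.06% in DU-145 and 3.59% in OVCAR-3, against 0.984%, 1.28% and 1.16% of the genome for the whole lists. The genome figure includes stretches without genes. Among the windows with a protein-coding start, 2.09% were covered as much in COLO-205, 14.5% in DU-145 and 12.4% in OVCAR-3. In COLO-205 22 of the 37 peaks had a −log10 q above the median of their list, but in DU-145 3 of 11 and in OVCAR-3 4 of 19. The median −log10 q of the window was 9.38 in COLO-205, beside 8.35 for its list, 7.09 beside 9.17 in DU-145 and 7.12 beside 11.05 in OVCAR-3. By fold, 24 of 37 in COLO-205, 5 of 11 in DU-145 and 4 of 19 in OVCAR-3 were above the median of their list, and the median fold of the window was 5.01 beside 4.73, 4.34 beside 4.50 and 4.41 beside 5.37.

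**Figure D3:**
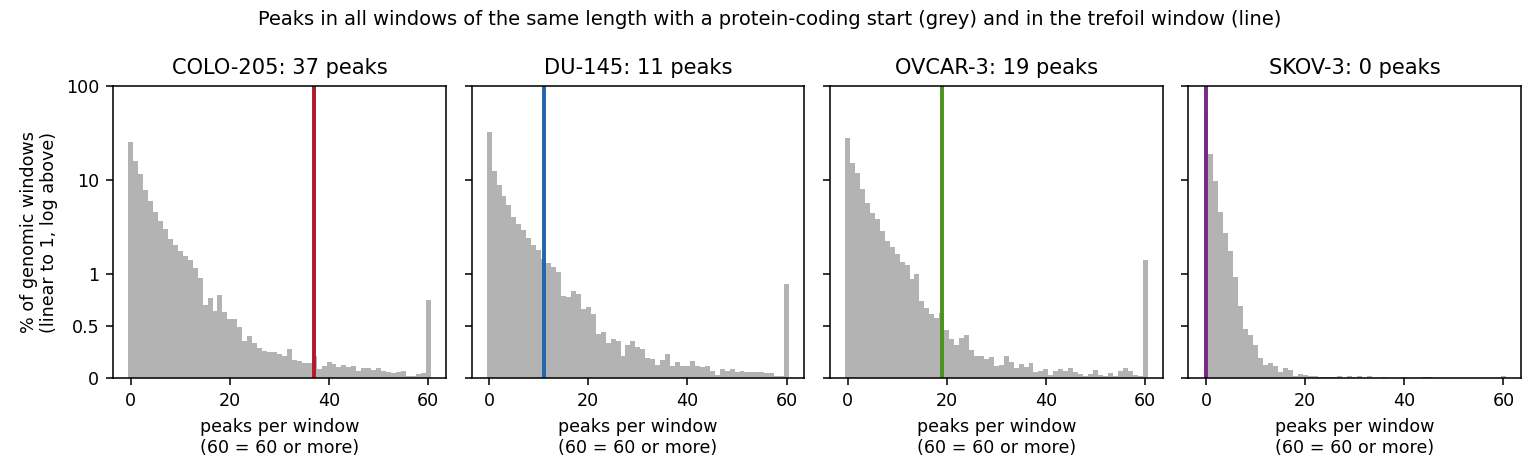
Distribution of the number of peaks per window over 11451 genomic windows of the same length with a protein-coding start (grey bars; vertical axis in percent of windows, linear up to 1 and logarithmic above) and the count of the trefoil window (coloured line). The trefoil window is far to the right in COLO-205, where 2.83% of windows have as many peaks, and at 0 in SKOV-3, as are 58.5% of windows.

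SKOV-3 had no peak in the window, and neither did 58.5% of genomic windows in that library. The SKOV-3 list is the shortest and its tag number the lowest. When the pileup and background of each peak were scaled to the tags of SKOV-3, 35 of 37 COLO-205 peaks, 7 of 11 DU-145 peaks and 12 of 19 OVCAR-3 peaks passed the lowest p of the SKOV-3 list, a scaling that takes the ratio of signal to background as it was in the other lines. Held to the 14001 most significant peaks of each list, the number in SKOV-3, the window kept 6 peaks in COLO-205, 1 in DU-145 and 0 in OVCAR-3. The part of the shorter peak list in the empty window was not tested.

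Among the transcription factors known for trefoil and goblet cell genes, 9 of 17 had a promoter peak in COLO-205, 8 for DU-145, 7 for OVCAR-3 and 4 for SKOV-3. These were 52.9%, 47.1%, 41.2% and 23.5% of the list, near the 51.1% of all genes in COLO-205 and below the 59.8%, 60.5% and 31.6% of the other lines. COLO-205 marked the gut regulators FOXA2 (fold 7.70, −log10 q 28.2), FOXA1 (8.22, 24.6) and HNF4A (4.68, 20.9), and it was the only line with a promoter peak at HNF4A or CDX2. DU-145 had promoter peaks at FOXA1 (fold 11.2, −log10 q 71.9), ELF3 and KLF4. OVCAR-3 had them at the epithelial factor ELF3 (fold 16.9, −log10 q 133), KLF4 (7.23, 40.5), FOXA3 (3.74, 20.3) and FOXA1 (6.29, 17.6), of which only ELF3 was above the median promoter peak of that library (fold 7.39, −log10 q 42.7). SKOV-3 had FOXA1 (fold 8.05, −log10 q 17.8), GATA6 and, alone among the lines, the oestrogen receptor gene ESR1 (fold 7.37, −log10 q 14.6), while it had no peak in the trefoil window. The secretory cell regulators ATOH1 and GFI1 had no promoter peak in any line, and SPDEF, which drives goblet cell maturation, had one in DU-145 alone (fold 2.89, −log10 q 7.10).

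The other genes of intestinal goblet cell secretion had promoter peaks at 5 of 13 in COLO-205 (38.5%, beside 51.1% of all genes), with ERN2 (fold 5.41, −log10 q 20.7), BCAS1 (4.81, 14.1), the gel-forming mucin MUC2 (3.24, 11.7) and the glycosyltransferase ST6GALNAC1 (5.28, 10.7) at the top. FCGBP, CLCA1, ZG16, SPINK4, AGR2, AGR3, REG4 and SYTL2 had none there. OVCAR-3 had 3 of 13 (23.1%, beside 60.5%), and 2 of them were strong, at ST6GALNAC1 (fold 17.2, −log10 q 92.3) and FCGBP, the gene of a mucus protein that binds TFF3 (14.7, 55.3). DU-145 and SKOV-3 had 0 of 13, beside promoter shares of 59.8% and 31.6% over all genes. The order of COLO-205 and OVCAR-3 depended on the window, since with 2.5 kb OVCAR-3 had 6 of 13 and COLO-205 5, and with 500 bp both had 3.

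Genes of gastric mucous cells, the normal setting of TFF1 and TFF2, had promoter peaks at 7 of 11 in COLO-205, 2 for DU-145, 3 for OVCAR-3 and 2 for SKOV-3. In COLO-205 this was 63.6% of the list, beside 51.1% of all genes, and the 18.2%, 27.3% and 18.2% of the other lines were below their 59.8%, 60.5% and 31.6%. With equal peak numbers COLO-205 marked 3 of 11 and each of the other lines 2. COLO-205 marked the pepsinogen gene PGC (fold 10.4, −log10 q 38.0), MUC5AC, the mucin secreted together with TFF1 (4.46, 18.9), PSCA (5.84, 18.9) and MUC1 (4.94, 13.5), and also CLDN18, MUC5B and MUC6, the mucin secreted together with TFF2 (2.45, 6.57). PSCA and MUC1 were marked in all 4 lines and had their lowest fold and −log10 q in COLO-205. PSCA had a fold of 7.72 in DU-145, 9.76 in SKOV-3 and 18.99 in OVCAR-3, and MUC1 5.03, 6.86 and 8.18. They were the 2 genes of the list in DU-145 and in SKOV-3. OVCAR-3 added MUC5AC (fold 2.77, −log10 q 6.65). The gastrokine genes GKN1 and GKN2 had no promoter peak in any line.

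Genes proposed as receptors or partners of trefoil peptides had promoter peaks at 5 of 8 in COLO-205, 3 for DU-145, 3 for OVCAR-3 and 0 for SKOV-3. In COLO-205 this was 62.5%, beside 51.1% of all genes, and in DU-145 and OVCAR-3 37.5%, beside 59.8% and 60.5%, with 31.6% for SKOV-3. COLO-205 did not stay ahead: at a −log10 q of at least 10 the counts were 3, 3, 3 and 0, and with equal peak numbers 2, 1, 3 and 0. The chemokine receptor genes CXCR4 (fold 7.91, −log10 q 27.3) and ACKR3 (4.80, 7.50) were marked in COLO-205 alone. EGFR and the protease-activated receptor gene F2RL1 were marked in COLO-205, DU-145 and OVCAR-3, and LINGO2 in COLO-205 (fold 5.06, −log10 q 6.74) and OVCAR-3 (10.4, 37.9). DMBT1, the gene of a mucosal protein that binds TFF2, was marked in DU-145 alone (4.74, 10.7).

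Genes next to the trefoil cluster were also counted. Of 8 neighbours, 5 had a promoter peak in COLO-205, 6 for DU-145, 7 for OVCAR-3 and 2 for SKOV-3, an order that follows that of the shares over all genes (51.1%, 59.8%, 60.5% and 31.6%). In SKOV-3 the kinase gene RIPK4 (fold 7.63, −log10 q 26.5) and the sugar phosphate transporter gene SLC37A1 (7.08, 16.2) were marked on either side of the unmarked cluster. RIPK4 and the phosphodiesterase gene PDE9A were far stronger in OVCAR-3 (folds of 16.7 and 18.3) than any peak of the trefoil window.

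**Figure D4:**
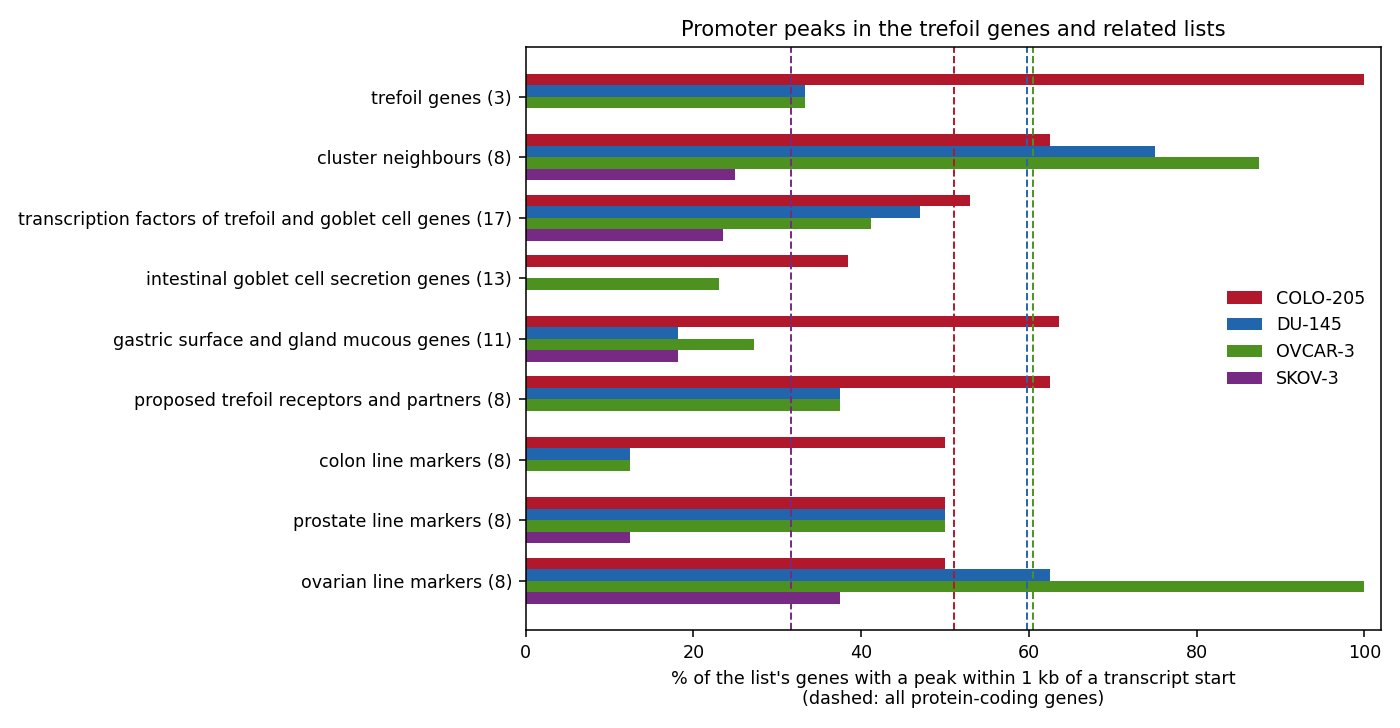
Percent of the genes of each list with a peak within 1 kb of a transcript start, with the number of genes in brackets and 1 bar per line; dashed lines give the percent of all protein-coding genes for each line. COLO-205 marks 3 of 3 trefoil genes and 7 of 11 gastric mucous genes, OVCAR-3 marks 8 of 8 ovarian markers, and DU-145 and SKOV-3 mark none of the 13 goblet cell genes.

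The pattern of each trefoil gene over the 4 lines was shared with many other genes. TFF3, marked in COLO-205 alone, had this pattern in common with 1241 others, TFF2, marked in COLO-205 and OVCAR-3, with 557, and TFF1, marked in COLO-205 and DU-145, with 528. Likeness was measured as the distance over 4 lines between percentile ranks of the strongest promoter peak's fold within each library. The closest genes were F10, TEX29, VWA5B1, FRMD3 and GGACT for TFF3, CLEC9A, SLC24A3, LRRC38, TTC39A and C1QTNF3 for TFF2, and TMEM218, EML5, SLC24A4, RPP25 and SCAMP5 for TFF1. The distances were 0.146 to 0.504 ranks for TFF3, 0.969 to 4.32 for TFF2 and 0.982 to 3.34 for TFF1, and RPP25 and SCAMP5 had identical values. The distances of TFF3 rest on the rank in COLO-205 alone, so they are small by construction and not comparable with those of TFF2 and TFF1. None of these genes was on the lists of trefoil factor regulators, mucus genes or receptors.

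Motifs were sought on both strands in the 201 bases around each summit, as letters alone. Among them were FOXA (TGTTTAC or TGTTTGC), CDX (TTTATG or TTTATT), KLF (CACCC), ETS (GGAAGT), AP-1 (TGANTCA) and an E-box (CACGTG or CAGCTG). Also sought were the letters bound by GATA factors, which were AGATAA in the first form and TGATAA in the other. A TATA box was taken as TATAAA, and the oestrogen response element as GGTCANNNTGACC, with a relaxed form, GGTCANNNTGNCC, that includes it. The letters CACCC were in 29 of 37 COLO-205 windows (78.4%, beside 56.7% of all its peaks), in 9 of 11 of DU-145 (81.8%, beside 51.7%) and in 12 of 19 of OVCAR-3 (63.2%, beside 54.6%). The letters GGAAGT were in 10 of 37 COLO-205 windows (beside 8.11% of all its peaks), in 1 of 11 of DU-145 (beside 8.64%) and in 2 of 19 of OVCAR-3 (beside 9.01%). The median GC content of the windows was 62.2% in COLO-205, beside 59.7% for its whole list, 56.7% beside 54.7% in DU-145 and 57.2% beside 56.2% in OVCAR-3. The part of base composition in these shares was not tested.

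FOXA letters were in 1 of 37 COLO-205 windows, which is the strongest peak upstream of TFF3 shown above, beside 2.28% of all its peaks. CDX letters were in 0 of 37, beside 7.77%. In DU-145 CDX letters were in 2 of 11 windows, beside 11.7%. In OVCAR-3 they were in 2 of 19, beside 8.82%, and AP-1 letters in 3 of 19, beside 3.70%, while AP-1 letters were in 2 of 37 windows in COLO-205, beside 2.63%, and in 0 of 11 in DU-145, beside 3.97%. Neither form of the oestrogen response element was in any of the 67 windows, and the strict form is in 0.0280% of all COLO-205 peaks. These are matches of letters in reference sequence and do not show which factor bound.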

How the data were processed

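Each line was 1 ChIP-seq library. Per the submitters' processing notes, reads were mapped to hg19 with Bowtie2 2.1.0 and peaks called with MACS2 2.1.0.20150603, per library. Each deposited peak has a score, which the authors' peak caller wrote as 10 times its −log10 q, a fold enrichment, which is a ratio to the local background, −log10 values of p and of q, and a summit offset. The study's methods merge peaks under 350 bp apart. The lists hold closer neighbours and were used as deposited.

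From the deposited fold and −log10 p, the whole-number summit pileup and background were solved for (tolerance 0.001), which worked for 99.92% to 100% of peaks, and tags were computed with 2700000000 genome positions. Exact Poisson intervals cover counting error only. Annotation was GENCODE 44 on GRCh37. Pileup recovery was tested on simulated data. Python 3.11.15, numpy 2.4.6, scipy 1.17.1 and pandas 2.3.3 were used. With 1 library per line, no test was made.

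The members and lists were chosen with earlier results of these data known. Named were all 3 trefoil genes, every promoter peak of theirs, the 5 strongest window peaks per line, up to 4 list genes per line by −log10 q plus those without a peak, and the 5 nearest genes by pattern. Names beyond this rule were chosen after their values were seen, and some list members and motifs are not reported here. The alternatives are given with the closing observations.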

Additional observations from a re-analysis of the deposited data

How the results depend on the processing

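No paired analysis was possible because each line has a lone library. The count of trefoil genes with a promoter peak in COLO-205 was 2 or 3 under every alternative run. TFF1 was lost with 500 bp on either side of a start or with at least 50% of the peak inside, and TFF2 was lost at a −log10 q of at least 10 or when every list was held to its 14001 most significant peaks. TFF3 stayed in COLO-205 throughout, and SKOV-3 stayed at 0. DU-145 fell from 1 gene to 0 with 500 bp, under the stricter limit on −log10 q and with equal peak numbers, and rose to 3 with 2.5 kb and with 5 kb. OVCAR-3 fell from 1 to 0 with equal peak numbers and rose to 2 with 2.5 kb and to 3 with 5 kb. So with 5 kb the 3 larger lists mark all 3 genes.

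The number of window peaks in COLO-205 was 14 without flanks, 16 at a −log10 q of at least 10 and 6 with equal peak numbers. In DU-145 it was 7, 3 and 1 under the same settings and 24 with 100 kb on either side. In OVCAR-3 it was 5, 5 and 0, and 11 with 25 kb. Fewer peaks follow from the construction of these settings, and COLO-205 kept the highest count in all of them.

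The share of protein-coding genes with a promoter peak (COLO-205 first, then DU-145, OVCAR-3, and SKOV-3 last) was 31.7%, 51.1%, 55.3% and 22.2% at a −log10 q of at least 10, 48.2%, 58.6%, 59.3% and 30.8% with 500 bp, and 55.2%, 61.7%, 62.3% and 32.6% with 2.5 kb. With equal peak numbers it was 21.8% in COLO-205, 37.8% in DU-145 and 37.9% in OVCAR-3. Of 36 list counts, 28 stayed within 1.5 times at the stricter q, 32 with 2.5 kb and 33 with 500 bp. With equal peak numbers, which cannot change SKOV-3, 9 of the 27 counts of the other lines did. Merging peaks and using coding transcripts only changed no member call.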
